A study of Oncorhynchus mykiss with 12 samples.

Results

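Among the small RNA sequences counted in rainbow trout liver, 708 of 1696 carry names that begin with PC- and are taken here as predicted candidates, while the other 988 carry known miRNA names. Described here are the 55 candidates that reached at least 10 estimated counts in at least 4 of 12 libraries. The same count rule is met by 304 of the known names. These candidates were chosen by their estimated counts in the 12 libraries, so their levels are given as a description without a test.

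Liver small RNA was sequenced from adult, wild type rainbow trout listed under the strain Walbaum, with 4 libraries in each of 3 groups. The fasted group (libraries 7, 8, 10 and 13) had no feed for 4 days. The other groups were fed again after fasting, one on a diet without carbohydrate (noCHO, libraries 20, 21, 31 and 33) and one on a diet high in carbohydrate (highCHO, libraries 38, 45, 49 and 50), and the time since that meal is not given in the sources used here. The labels number the samples without saying that each is a separate animal, so p-values measure the spread between these libraries, which may be in part technical.

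A miRNA is cut from a hairpin precursor, and one or both arms of the hairpin (5p and 3p) persist as a short RNA that guides Argonaute proteins to target transcripts, mostly through the seed at bases 2 to 8. Prediction programs propose further miRNAs from reads whose surroundings in a genome or transcript can fold into a hairpin. Such a candidate can be a true miRNA, an end variant of a known one, or a fragment of another RNA, and its abundance alone does not tell which. The liver's own most abundant miRNA is miR-122, a marker of hepatocytes.

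The 10 candidates with the highest mean level are shown first, followed by a pair from further down the list, PC-5p-6878_100 and PC-3p-11644_46, whose counts differ sharply between libraries. All are written 5′ to 3′ in the DNA letters of the deposited table, with the seed in capitals.
PC-5p-219_12291: cCGTGGACgttcccgtgg
PC-5p-822_1981: cTCGATCCaagcttttgt
PC-5p-1744_747: tGGCACACcagtagaccctttct
PC-3p-1112_1333: gTTCTATActggtcatctctct
PC-5p-1763_736: tAGCAGCAcatcattactggta
PC-3p-1821_696: aAGTCGGCacaaacatatctgt
PC-3p-1984_613: tATAGAATactgtagtatgtac
PC-5p-2585_407: tTGGAGGAttgagaaggtgtagcagctt
PC-5p-3166_306: tGGAGTGTgacaatggaaa
PC-5p-2366_467: aCACCAACtgttccaatacaat
PC-5p-6878_100: aTAGCACTcttgatgatcaact
PC-3p-11644_46: cGTAGTTGgatctcgggatcgagct
No seed occurred in more than 1 of the 55 candidates, and 9 candidates shared their seed with a known name that met the same count rule. The seed of PC-5p-1763_736 was that of fru-miR-16, and the seed of PC-5p-3166_306 was that of miR-122.

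Most of the candidates had the length of a miRNA. Of the 55, 46 were 21 to 23 nt long and 31 were 22 nt, within a whole range of 18 to 28 nt. The exceptions included 3 candidates of 18 nt, namely PC-5p-219_12291, PC-5p-822_1981 and PC-3p-12113_44, of which the first pair were the most abundant of all. The longest was PC-5p-2585_407 with 28 nt. By name, 26 came from a 5p arm and 29 from a 3p arm. A first base of T, frequent among miRNAs, was found in 26 of 55 candidates (47.3%) and in 146 of the 304 known names (48.0%). The median GC content was 42.9%, from 27.3 to 77.3%.

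Each candidate was compared with the known names of at least 18 nt that met the same count rule. A run of 16 or more identical bases was shared with such a name by 12 of 55, and in the other 43 the longest shared run was at most 11 bases. A single differing base ends such a run, so a short run does not exclude a close relative. Of the 12, 9 hold a whole known sequence with 1 to 6 additional bases at an end. Such end variants, called isomiRs, can arise where a hairpin is cut or trimmed at a neighbouring base, among other ways, and how these arose was not tested. The run lengths were compared after the data had been seen. The sequences that show this are set beside the known name, with bases outside the known sequence in capitals.
PC-3p-7139_95: tttcagtagggtgtttgctgcT
PC-3p-2682_385: caatgtgtctgcagtgcagtaT
PC-3p-5129_152: caatgttcctgcagtgcaagaT
PC-3p-5987_122: gctgtgtgaggtcggacctatcT
PC-3p-5894_125: cctggatgtgggttccgtctCC
PC-5p-1763_736: tagcagcacatcattactggTA
PC-5p-6939_99: CGTGGtgaggtagtaggttgtatagtt
PC-5p-5196_150: aaaccgttaccattactgagtTTTAGC
PC-3p-3965_216: Ttttagcaatggtaagggttct
The known sequences inside them follow in the same order. They are the listed forms of miR-30b-3p, miR-33a-3p, miR-33b-3p, miR-2188-3p, miR-462a-3p, miR-457a, let-7a, miR-451 and the 3′ arm of the miR-451 hairpin. Some listed forms have names with added tags and may differ from the miRNA itself. These are ssa-miR-30b-3p_L-1, dre-miR-2188-3p_L+1_2ss13TC14AG, ccr-mir-457a-p5_2ss14AT17TC, dre-miR-451_R-1 and dre-mir-451-p3_1ss6TC. The miR-33 family lies within genes for sterol regulatory proteins and is known for its part in cholesterol handling in mammals. PC-3p-7380_90 is shifted by 1 base along ssa-miR-15a-3p and shares 21 bases with it. Over all known names of at least 18 nt, also those below the count rule, 10 candidates hold a whole known sequence. The additional one is PC-3p-11616_46, which holds all 20 bases of ipu-mir-181b-2-p3_1ss4AG, a name with 3.5 counts in all. Within 2 edits (bases changed, added or left out) of such a name lay 14 candidates. Among them, PC-3p-3268_290 was 1 edit from fru-let-7j-p3_2ss11GC22CT, with 1 count in all. PC-3p-6237_115 was 2 edits from ssa-miR-21a-2-3p_R-1, with 0.333 counts in all.

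The remaining pair of the candidates with a long shared run resembles miR-122. The table's miR-122 and the first candidate are shown with the 2 differing bases of the candidate in capitals, followed by the other candidate with its seed in capitals.
dre-miR-122_R-1: tGGAGTGTgacaatggtgttt
PC-5p-4045_211: tTTagtgtgacaatggtgttt
PC-5p-3166_306: tGGAGTGTgacaatggaaa
Counted from 1 at the 5′ end of miR-122 (whose seed is in capitals), PC-5p-4045_211 carries G2T and G3T, both within the seed. PC-5p-3166_306 holds the first 16 bases of miR-122 and then differs. Their counts were at most 0.00972% and 0.0253% of those of miR-122 in any library.

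Other candidates overlapped each other. PC-5p-5196_150 and PC-3p-3965_216, the candidates around miR-451, meet in 7 shared bases, shown in capitals.
PC-5p-5196_150: aaaccgttaccattactgagTTTTAGC
PC-3p-3965_216: TTTTAGCaatggtaagggttct
joined: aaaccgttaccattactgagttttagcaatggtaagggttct
The joined sequence is 42 nt long and holds the miR-451 sequence followed by the 3′ arm. In mammals and zebrafish, miR-451 is known for a short hairpin that Argonaute2 cuts in place of Dicer, and it is abundant in red blood cells. A second pair, found by the same search for shared ends of at least 7 bases chosen after the data were seen, was PC-5p-219_12291 with PC-3p-12113_44, whose 12 shared bases are in capitals.
PC-5p-219_12291: ccgtggACGTTCCCGTGG
PC-3p-12113_44: ACGTTCCCGTGGtcgctt
joined: ccgtggacgttcccgtggtcgctt
Of the 55 candidates, 6 (10.9%) held a run of at least 14 bases that was the reverse complement of another sequence of the table, against 4.90% of the other candidates and 4.61% of the known names under the same count rule. The longest, of 21 bases, was between PC-5p-3862_226 and dre-miR-100-2-3p, which had 420 counts in all. Every other partner had at most 12 counts in all. PC-5p-4045_211 and PC-5p-3166_306 had the same partner, PC-3p-46301_7, with 9.5 counts. The reverse complement of that partner holds the whole miR-122 sequence shown above. The runs lie in bases that both candidates share with miR-122, so they are not separate cases among the 6. Such a run is found where both strands of a locus or both arms of a hairpin give reads. Without a genome, the loci of these sequences were not examined here.

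The candidates were rare beside the known miRNAs. Together they held 35430.3 counts, which is 81.0% of the counts of all 708 candidates. Of the 708, 595 stayed under 10 counts in every library. The candidates' share of all table counts was 0.173 ± 0.0134% in fasted, 0.164 ± 0.0388% in noCHO and 0.323 ± 0.103% in highCHO libraries (SD, n = 4 each). Without PC-5p-219_12291 the shares were 0.124 ± 0.0162%, 0.119 ± 0.0270% and 0.155 ± 0.0936%, and the last of these held 1 high library, highCHO 38, with 0.294% against 0.0959 to 0.128% in the other highCHO libraries. PC-5p-219_12291 alone made up 34.9% of the candidates' counts. As a percent of mappable reads, the candidates together held 0.0773 ± 0.00667 in fasted, 0.0811 ± 0.0140 in noCHO and 0.104 ± 0.0115 in highCHO libraries (SD, n = 4 each).

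Libraries differed in depth, with 197684 counts in highCHO 49 and up to 3057706 in noCHO 33. Inserts under 15 nt made up 6.18 to 13.0% of adapter-containing reads in fasted and noCHO libraries and 14.2 to 32.2% in highCHO libraries. Table counts were 43.1 to 56.0% of mappable reads in fasted and noCHO libraries and 25.5 to 41.2% in highCHO libraries. The libraries also fell into 2 sets by a let-7c base difference (A19C from let-7a, position from 1 at the 5′ end), with a share up to 1.42% in set 1 and from 3.32% in set 2. Set 1 holds the fasted libraries with noCHO 20 and 21, and set 2 holds noCHO 31 and 33 with the highCHO libraries, so a difference between fasted and highCHO cannot be told apart from one between the sets. Hepatocyte miRNAs (miR-122, miR-192 and miR-194) summed to 252070 to 382242 CPM of the table counts, the check made of the liver label, and miR-122 alone ranged from 227953 to 359920.

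Nearly all candidates were detected in nearly all libraries. Between 53 and 55 of the 55 candidates had at least 1 count in each of 11 libraries, and 47 did in highCHO 49, the shallowest. Among the 11, detection did not follow depth, since fasted 8 with 694063 counts had all 55 and noCHO 33, the deepest, had 53. Reduced by calculation to the depth of highCHO 49, the other libraries would show 42.4 to 49.4 candidates, beside the 47 seen there. At least 10 counts were reached by 29 to 52 candidates in the other libraries and by 7 in highCHO 49. In all, 44 candidates were counted in all 12 libraries, and 7 had at least 10 counts in all 12. Outside highCHO 49, values of 0 were confined to 5 candidates, PC-5p-4045_211, PC-5p-6878_100, PC-5p-5563_136 in fasted 7, PC-5p-4872_164 in fasted 10 and PC-3p-2080_566 in noCHO 20. For PC-3p-2080_566 a count of 0 in noCHO 20 allows a level of up to 3.38 CPM, below its median of 29.5 CPM. CPM are counts scaled to the library's depth (1e6 counts) with TMM factors, which correct for composition, and floors of this kind (3 counts) cover counting error only.

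At the edge of the rule, 6 candidates had 10 counts in exactly 4 libraries, with totals of 88 (PC-3p-11616_46), 91 (PC-3p-7311_91), 93.5 (PC-5p-9381_64), 99 (PC-3p-14652_33), 108 (PC-3p-13144_39) and 152.5 (PC-5p-4045_211). Just outside it, 6 candidates reached 10 counts in exactly 3 libraries, with totals of 46 (PC-5p-12209_43), 66 (PC-5p-10511_54), 67 (PC-3p-12403_43), 69 (PC-5p-10531_54), 77 (PC-5p-9788_60) and 90.7 (PC-5p-8271_77). The totals on the 2 sides of the edge overlap.

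**Figure D1:**
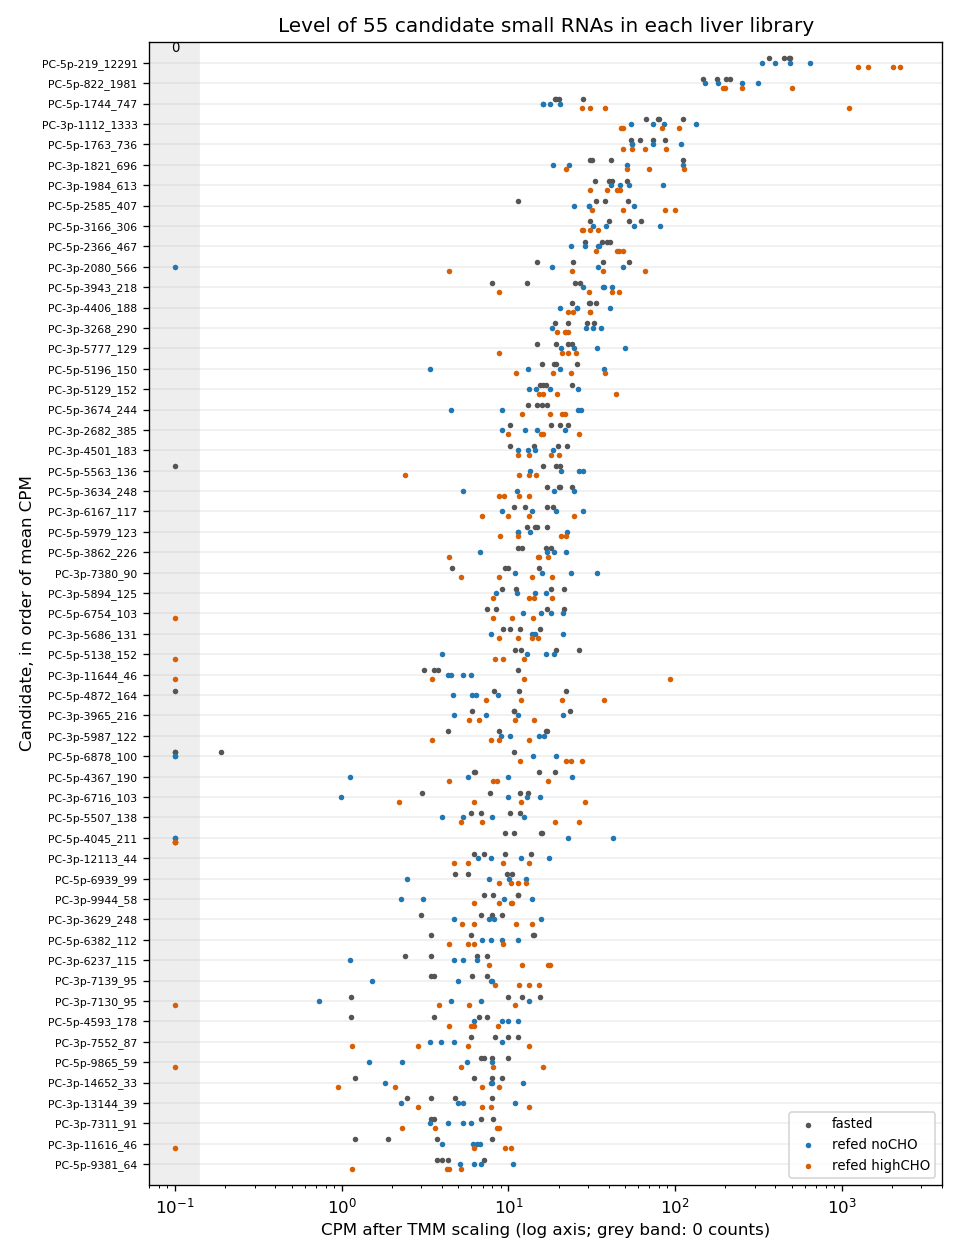
Level of each of the 55 candidates in each library, in CPM after TMM scaling on a log axis, with 1 point per library and colours for the 3 groups; points in the grey band are counts of 0. Mean levels run from 884 CPM for PC-5p-219_12291 down to 5.26 CPM, and 39 candidates lie under 20 CPM.

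Mean levels over the 12 libraries ran from 884 down to 5.26 CPM with a median of 12.9. A mean over 100 CPM was reached by 3 candidates, 13 lay between 20 and 100 CPM and 39 lay under 20 CPM. The most abundant, PC-5p-219_12291, ranked 64 and the next, PC-5p-822_1981, ranked 107 among all 1696 sequences. The coefficient of variation over libraries had a median of 44.8% and ranged from 19.6 to 276%.

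The level of PC-5p-219_12291 was 452.5, 363.9, 492.4 and 481.7 CPM in fasted libraries 7, 8, 10 and 13. It was 332.8, 396.9, 644.1 and 492.0 CPM in noCHO libraries 20, 21, 31 and 33. It was 1255.4, 2025.6, 2237.4 and 1436.0 CPM in highCHO libraries 38, 45, 49 and 50. All 4 highCHO libraries lay above all 8 others, while fasted and noCHO libraries overlapped. Group means were 448 ± 58.3, 466 ± 135 and 1739 ± 468 CPM (SD, n = 4 each).

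PC-5p-219_12291 rose in the highCHO group against both other groups. The log2 change was 1.96 (SE 0.25) against fasted and 1.90 (SE 0.25) against noCHO, with edgeR quasi-likelihood p adjusted over all sequences of 0.00119 and 0.00186. It stayed past the threshold of 0.05 in each of the 12 fits that left out 1 library. Its level followed the share of short inserts within the highCHO and fasted groups, but not within the noCHO group. The highCHO libraries in order of level, 38, 50, 45 and 49, had 14.2, 16.9, 21.4 and 32.2% of inserts under 15 nt. The order by that share was thus the same. The fasted libraries, 8, 7, 13 and 10 by level, also had the same order by that share. Of the noCHO libraries, 33 had the lowest share, 6.18%, at 492 CPM, and 21 had the highest, 12.96%, at 396.9 CPM. With the short-insert share as a term the log2 changes were 1.45 (SE 0.32, adjusted p = 0.0597) and 1.38 (SE 0.32, adjusted p = 0.0766). With the library set as a term they were 1.32 (SE 0.37, adjusted p = 0.0749) against fasted and 1.61 (SE 0.28, adjusted p = 0.0138) against noCHO. Within set 2 alone the change against noCHO was 1.63 (SE 0.33, adjusted p = 0.184).

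**Figure D2:**
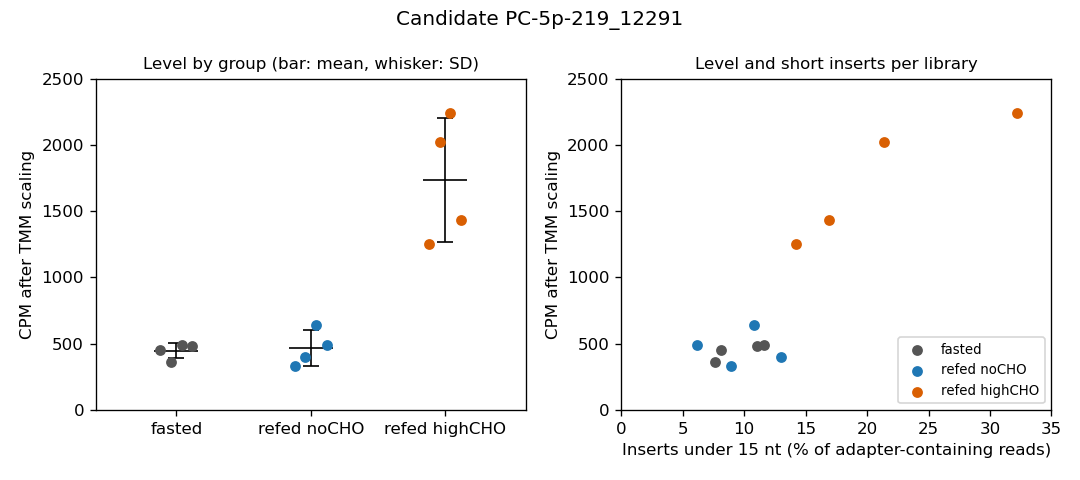
Left, level of PC-5p-219_12291 (CPM after TMM scaling) in each library by group, with the mean as a bar and the SD as whiskers. Right, the same levels against the share of inserts under 15 nt; the 4 highCHO libraries, from 1255.4 to 2237.4 CPM, have the highest values on both axes.

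The candidate that overlaps it did not move in the same way. PC-3p-12113_44, which shares 12 bases with PC-5p-219_12291, had 6.19 to 13.7 CPM in fasted, 6.56 to 17.6 CPM in noCHO and 4.69 to 13.3 CPM in highCHO libraries. The groups overlapped, and its log2 change in highCHO was −0.35 (SE 0.45, adjusted p = 0.696) against fasted and −0.62 (SE 0.44, adjusted p = 0.386) against noCHO. Its counts as a percent of those of PC-5p-219_12291 were 2.02 ± 0.579 in fasted, 2.50 ± 1.36 in noCHO and 0.456 ± 0.0979 in highCHO libraries (SD, n = 4 each). The highest highCHO value, 0.593%, lay below the lowest of the others, 1.33%. That ratio contains the count of PC-5p-219_12291 and is no independent result.

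PC-5p-822_1981, the other abundant candidate of 18 nt, had 147 to 214 CPM in fasted, 151 to 317 CPM in noCHO and 195 to 500.5 CPM in highCHO libraries. The groups overlapped, and its log2 change in highCHO against fasted was 0.63 (SE 0.33, adjusted p = 0.241). Its highest value was in highCHO 38, and the other highCHO libraries had 195 to 252 CPM.

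Over all candidates, few changes passed. The edgeR filter on low counts admitted 49 of the 55 to the test. The other 6 were PC-5p-9381_64, PC-3p-6237_115, PC-5p-4593_178, PC-3p-11616_46, PC-3p-7311_91 and PC-3p-11644_46. The filter keeps sequences that reach a minimum level in as many libraries as a group holds, whichever groups these come from. The counts below thus describe the tested candidates only.

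Between noCHO and fasted, 0 of 49 candidates passed in edgeR, and 0% of the 340 sequences tested did. At an unadjusted p under 0.05 there was 1 candidate, and 23 of all sequences. DESeq2 called 0 candidates and 2 of all sequences. The median log2 change was 0.04 for candidates and 0.02 for all sequences. Within 0.5 of 0 lay 40 of 49 candidates (81.6%) and 283 of 340 sequences (83.2%). The smallest p belonged to PC-5p-3943_218, with 13.0, 25.1, 7.98 and 26.9 CPM in the fasted libraries and 28.2, 37.5, 41.6 and 36.8 CPM in the noCHO libraries. The groups did not overlap, but the log2 change of 0.96 (SE 0.41) did not pass (adjusted p = 0.598). It was the only candidate of 49 with higher noCHO values and no overlap, against a background of 3.82% of sequences, and 0 candidates were lower without overlap, against 0.294%.

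The next smallest p upward were those of PC-3p-5777_129 (log2 0.69, SE 0.32) and PC-3p-7380_90 (log2 0.99, SE 0.46), both with an adjusted p = 0.674. Downward they were PC-3p-7552_87 (−0.74, SE 0.47), PC-5p-9865_59 (−0.91, SE 0.59) and PC-5p-4872_164 (−0.83, SE 0.69), with adjusted p of 0.830, 0.830 and 0.993. PC-3p-7380_90 is the shifted form of miR-15a-3p, whose listed sequence had a log2 change of 0.87 (SE 0.32, adjusted p = 0.548) in the same comparison.

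Between highCHO and fasted, 1 of 49 candidates passed, against a background of 6.18% of sequences in either direction (3.24% higher, 2.94% lower), and it was PC-5p-219_12291, which was higher. Without overlap, 3 of 49 were higher (6.12%, background 6.18%), namely PC-5p-219_12291, PC-5p-6878_100 and PC-3p-7139_95, and 2 were lower (4.08%, background 10.6%), namely PC-5p-3634_248 and PC-5p-4045_211. The candidates' shares were thus near or below those of all sequences. PC-3p-7139_95 and PC-5p-6878_100 needed their highCHO libraries to get through the filter, so their higher values there are no independent result. PC-5p-4045_211 got through by libraries of set 1 alone, so its lower highCHO values are no independent result either. Scaling to mappable reads in place of TMM called 9 candidates (2 higher, 7 lower), among 115 of 342 sequences (9 higher, 106 lower), where TMM had called 11 higher and 10 lower sequences. The median log2 change was −0.02 for candidates and 0.03 for all sequences, and 32 of 49 candidates lay within 0.5 of 0.

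Between highCHO and noCHO, 1 of 49 passed, against a background of 2.35% (1.18% higher, 1.18% lower), and it was again PC-5p-219_12291. Without overlap, 3 of 49 were higher (6.12%, background 3.53%), namely PC-5p-219_12291, PC-5p-1744_747 and PC-3p-7139_95, and 0 were lower (background 5.59%). PC-3p-7139_95 was admitted by the filter through the highCHO libraries alone. Scaling to mappable reads called 10 candidates (2 higher, 8 lower), among 115 sequences (8 higher, 107 lower), where TMM had called 4 each way. The median was −0.03 for candidates and −0.00 for all sequences. These comparisons share libraries, 4 highCHO here and above, so they are not independent of each other. Among the candidates not tested, PC-3p-6237_115 had 7.64 to 17.7 CPM in highCHO libraries, above the 2.39 to 7.43 CPM in fasted and 1.13 to 6.44 CPM in noCHO libraries. The margin to fasted was narrow, with 7.64 CPM (8 counts) in highCHO 50 and 7.43 CPM (12 counts) in fasted 7. The background shares cover tested sequences only and so do not apply to it.

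**Figure D3:**
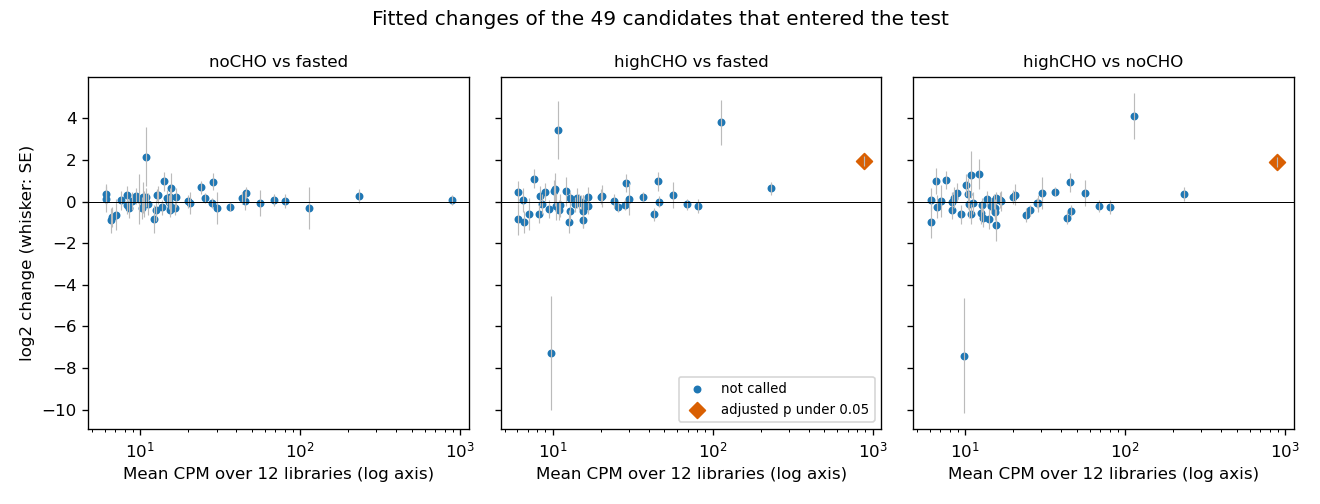
Fitted log2 change of each of the 49 tested candidates (whiskers, SE) against its mean CPM (log axis) in the 3 comparisons, with an orange diamond where the adjusted p was under 0.05. The diamond is PC-5p-219_12291 with 1.96 and 1.90; the points near −7 are PC-5p-4045_211, whose fitted value against libraries at 0 is not a fold change, and the point near 4 is PC-5p-1744_747, set by 1 library.

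PC-3p-7139_95, the miR-30b-3p sequence with 1 additional T, had 7.43, 3.59, 3.42 and 6.07 CPM in fasted and 7.90, 1.53, 4.95 and 8.01 CPM in noCHO libraries. In highCHO libraries it had 8.34, 11.6, 13.3 and 15.3 CPM. Each highCHO value was above each of the others, by a narrow margin for highCHO 38. The log2 changes of 1.11 (SE 0.45, adjusted p = 0.149) against fasted and 1.04 (SE 0.44, adjusted p = 0.203) against noCHO did not pass. This candidate got through the filter on low counts by its highCHO libraries alone, so a high level there was a condition for its test. Against fasted, a term for library set gave 0.51 (SE 0.80) and scaling to mappable reads gave 0.50 (SE 0.44), and with that scaling it was 0.49 (SE 0.43) against noCHO. The miR-30b-3p sequence itself had log2 changes of 0.18 (SE 0.23) and 0.02 (SE 0.23). The longer form stood at 6.34 ± 1.51%, 6.13 ± 3.09% and 13.6 ± 3.52% of the listed form in fasted, noCHO and highCHO libraries (SD, n = 4), and the highCHO values of 9.25 to 17.9% lay above the highest of the others, 9.09%. This ratio was chosen after its values were seen and has no test.

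Other end variants had ratios that overlapped between groups. Over the pooled libraries, PC-5p-1763_736 had 763% of the counts of the miR-457a sequence it extends by 2 bases, with 423 to 1388% in single libraries, so the candidate was the more abundant form in all 12. PC-3p-3965_216, PC-3p-7380_90, PC-3p-5894_125 and PC-3p-2682_385 stood at 79.9, 73.8, 58.8 and 43.9% of their relatives. PC-3p-5987_122 and PC-3p-5129_152 stood at 10.4 and 9.42%. PC-5p-5196_150 reached 1.75% of miR-451 and PC-5p-6939_99 reached 0.0259% of let-7a. How the authors' counting divides reads between such nested sequences is not given in the sources used here, so these ratios are uncertain.

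**Figure D4:**
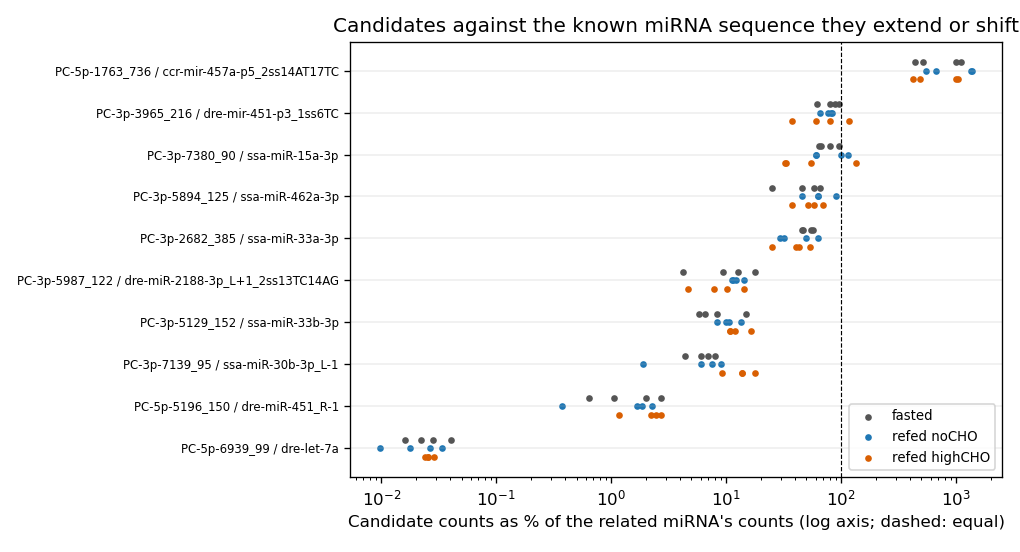
Counts of 10 candidates as a percent of the counts of the known miRNA sequence that they extend or are shifted along, 1 point per library on a log axis, coloured by group, with the dashed line at equal counts. PC-5p-1763_736 lies above the line in all 12 libraries, and the highCHO points of PC-3p-7139_95 lie at 9.25 to 17.9%.

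In the edgeR fit of 12 libraries with the low-count filter, TMM scaling and group as the only term, no candidate lower in highCHO passed. PC-5p-3634_248 had 24.1, 20.3, 17.1 and 20.1 CPM in fasted and 9.38, 11.6, 8.84 and 13.4 CPM in highCHO libraries, without overlap, and its log2 change was −0.89 (SE 0.40, adjusted p = 0.175). It passed with the library set as a term (−2.32, SE 0.47, adjusted p = 0.0270), as the 1 candidate called there, and with scaling to mappable reads (−1.53, SE 0.37, adjusted p = 0.00892). With the short-insert term it stood at −0.29 (SE 0.61, adjusted p = 0.838). Its noCHO values of 5.35 to 24.8 CPM spanned both other groups and differed by set. They were 11.3 and 5.35 CPM in noCHO 20 and 21 of set 1, and 18.8 and 24.8 CPM in noCHO 31 and 33 of set 2. Only the noCHO group holds both sets, so the set term rests on these libraries. Set 2 was the higher there, opposite to the difference between fasted and highCHO, so the larger change with that term is uncertain. PC-5p-3166_306, which begins as miR-122, had 31.0 to 62.7 CPM in fasted, 32.1 to 81.2 CPM in noCHO and 27.7 to 34.7 CPM in highCHO libraries. Its highCHO values lay at the low end of the others and overlapped them, with log2 changes of −0.61 (SE 0.32, adjusted p = 0.241) against fasted and −0.78 (SE 0.32, adjusted p = 0.192) against noCHO. With scaling to mappable reads these were −1.26 (adjusted p = 0.0124) and −1.36 (adjusted p = 0.00909). PC-3p-5777_129 had a log2 change of −0.64 (SE 0.33, adjusted p = 0.282) between highCHO and noCHO.

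PC-5p-4045_211, the form with G2T and G3T against miR-122, was counted in some libraries and listed at 0 in others. Its estimated counts were 25.5, 8, 9.5 and 42 in fasted libraries and 37.5, 30, 0 and 0 in noCHO libraries 20, 21, 31 and 33. They were 0 in all 4 highCHO libraries. Pooled, the fasted level was at least 19.3-fold higher than the highCHO level, with a floor of 3 counts over the group. The noCHO libraries were split, with counts in the 2 libraries of set 1 and none in the 2 of set 2. Over all libraries, set 1 was at least 54.96-fold higher than set 2 by the same floor, so its difference between fasted and highCHO cannot be told apart from the library sets. All of its counts lay in set 1, so it met the count rule and the edgeR filter through those libraries alone. Its higher values there are thus no independent result. The adjusted p of this candidate was 0.144 against fasted and 0.173 against noCHO in the filtered edgeR fit of all libraries. With no filter it was 0.000108 and 7.83e-05, and with scaling to mappable reads 0.0409 and 0.0368. With only the groups compared it was 0.00272 against fasted.

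PC-5p-6878_100 had 0, 9, 0 and 0.5 counts in fasted libraries and 0, 18.5, 39 and 0 in noCHO libraries. It had 22.5, 24, 5 and 25 counts in highCHO libraries. In CPM the highCHO libraries had 11.7 to 27.7, while the fasted libraries had at most 10.8, in fasted 8. Its values of 0 or near 0 fell in fasted 7, 10 and 13 and noCHO 20 of set 1, and in noCHO 33 of set 2. A difference of this candidate between fasted and highCHO cannot be told apart from one between the sets. The log2 change against fasted was 3.44 (SE 1.41, adjusted p = 0.149), a fitted value that depends on the libraries at 0.

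PC-5p-1744_747 had 1102 CPM (2113 counts) in highCHO 38 and 16.02 to 38.2 CPM in the other 11 libraries, a ratio of 28.8 to the next highest. Its log2 changes of 3.81 (SE 1.07, adjusted p = 0.0548) against fasted and 4.12 (SE 1.09, adjusted p = 0.0649) against noCHO did not pass. With the short-insert share as a term they were 5.49 (SE 1.01, adjusted p = 0.0288) and 5.73 (SE 1.00, adjusted p = 0.0388), and PC-5p-1744_747 was the 1 candidate called in those fits. Without highCHO 38 the log2 changes were 0.58 (SE 0.25, adjusted p = 0.162) and 0.89 (SE 0.25, adjusted p = 0.0646). The 3 remaining highCHO libraries, at 27.7, 31.0 and 38.2 CPM, lay above all noCHO libraries (16.02 to 20.3 CPM) and overlapped the fasted ones (19.2 to 27.9 CPM). PC-3p-11644_46 also peaked in highCHO 38, with 92.8 CPM (178 counts), and the other libraries had at most 12.4 CPM. These were the only candidates with a highest library more than 5 times the second, and in the other candidates that ratio was at most 1.87.

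The same library held miRNAs that mark another organ. The 6 pancreas families looked up (miR-216a, miR-216b, miR-217, miR-375, miR-7 and miR-8159) were all highest in highCHO 38. The margin was smallest for miR-7, with 252 CPM of the table counts there against at most 168 in the other libraries. These families were listed with earlier results of these data known, so their common peak is no independent result. They summed to 30436 CPM of the table counts there, against 173 to 504 in fasted, 185 to 288 in noCHO and 143.9 to 296 in the other highCHO libraries. Of its defining members, miR-216a stood at 15.3 CPM of the table counts in highCHO 38 and at 0 in the other 11 libraries. Some other marker families were also highest in highCHO 38. The summed epithelial families (miR-200, miR-141 and miR-429) had 7790 CPM against at most 4279 in the other libraries. MiR-192 had 59810 against at most 24440, and miR-194 had 4455 against at most 2047. The muscle families were mixed. MiR-1 had 180 CPM against at most 65.4, and miR-133 had 29.7 against at most 9.13. MiR-499 had 68.9 CPM there against up to 276 elsewhere, and miR-206 had 0.584 against up to 0.925. Summed over the muscle families looked up, highCHO 38 had 279 CPM and the other libraries had up to 295. MiR-122 was at its lowest there, with 227953 CPM, close to the 235620 CPM of highCHO 45, and other libraries had up to 359920. Whether any of these markers and the candidates share a source was not tested. In bulk tissue, more cells of a type and more RNA per cell cannot be told apart.

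**Figure D5:**
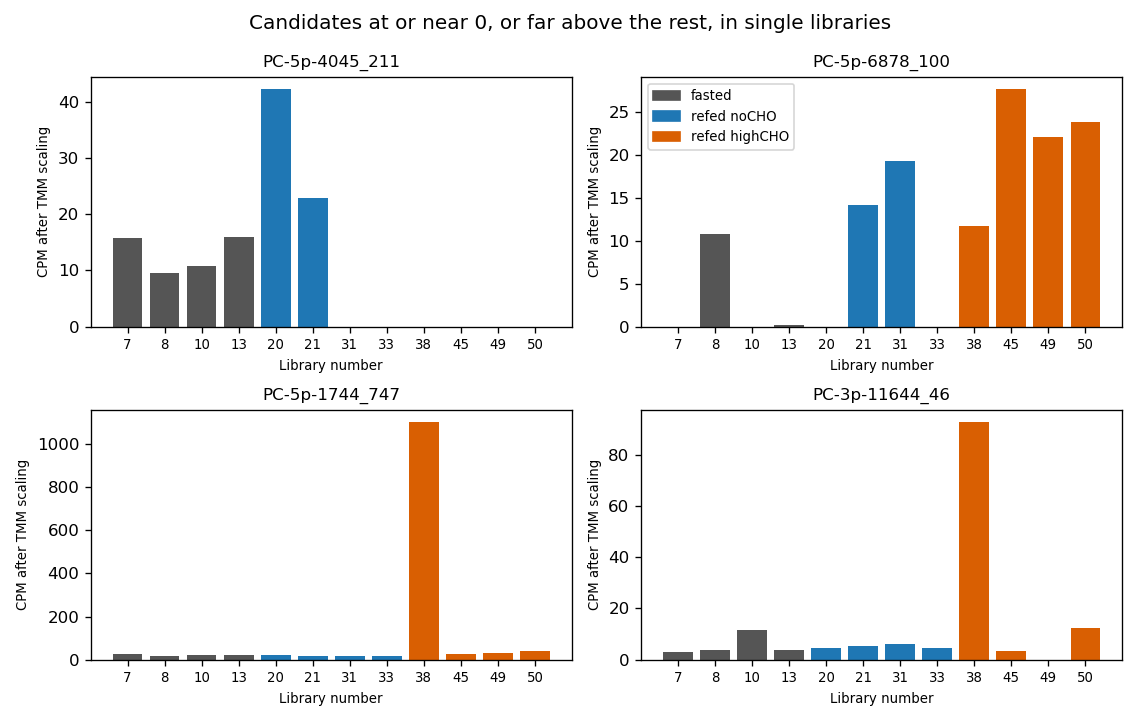
Level of 4 candidates in each library (bars, CPM after TMM scaling, each panel with its own axis from 0), ordered and coloured by group, with library numbers below. PC-5p-4045_211 is at 0 in libraries 31 to 50, PC-5p-6878_100 is present in all 4 highCHO libraries, and PC-5p-1744_747 and PC-3p-11644_46 peak in library 38 with 1102 and 92.8 CPM.

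The other abundant candidates overlapped between groups and did not pass. PC-3p-1112_1333 had 67.3 to 112 CPM in fasted, 54.2 to 134 CPM in noCHO and 47.4 to 105 CPM in highCHO libraries, with log2 changes of 0.04, −0.22 and −0.26 in the noCHO against fasted, highCHO against fasted and highCHO against noCHO comparisons. PC-5p-1763_736 had 54.7 to 86.9, 55.3 to 109 and 48.5 to 88.4 CPM in the 3 groups, with log2 changes of 0.07, −0.14 and −0.21. PC-3p-1821_696 ranged widely within each group, from 30.7 to 112 CPM in fasted, 18.6 to 112 CPM in noCHO and 22.1 to 114 CPM in highCHO libraries. PC-5p-2585_407, the longest candidate, had 11.4 to 52.0 CPM in fasted, 24.8 to 56.4 CPM in noCHO and 31.8 to 99.4 CPM in highCHO libraries. Its log2 changes in highCHO were 0.97 (SE 0.46, adjusted p = 0.191) against fasted and 0.94 (SE 0.46, adjusted p = 0.275) against noCHO. PC-3p-1984_613 had log2 changes of 0.42, −0.01 and −0.43, and PC-5p-2366_467 had −0.26, 0.22 and 0.48. The candidates around miR-451 followed no group either, with log2 changes of PC-5p-5196_150 of −0.06, 0.27 and 0.34 and of PC-3p-3965_216 of −0.12, −0.18 and −0.06.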

How the data were processed

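Small RNA of 12 liver libraries was described from 2 deposited tables. The authors deposited a read summary with whole counts per library (raw, adapter-containing, short-insert and mappable reads) and a table with an estimated count and a normalized signal per sequence and library. The deposited signal equalled the estimated count divided by 1 parameter per library, with 0 written as 0.001, and was not used. Bowtie 1.1.1 is named, with no role, in the submitters' processing notes. The sources used here do not give the predictor, the genome build or how reads shared by sequences were divided. Columns of samples outside the groups numbered 0.

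The whole table of estimated counts, after rounding, was fitted in edgeR 4.0.16 (R 4.3.3, TMM, filter by group); this left 340 sequences in 1 quasi-likelihood fit of the 12 libraries with 9 residual degrees of freedom, with Benjamini-Hochberg adjustment, two-sided, at 0.05. The SE of a log2 change is its size over the root of F. Levels are CPM with TMM factors applied; reads span whole molecules and were not divided by length. The procedure was tested on simulated data. Sequences were compared in Python 3.11.15.

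The candidates, marker lists and tests were chosen with earlier results of these data known. Named candidates are the 10 most abundant, those past the threshold, the 3 with the smallest p in each direction and comparison, those at 0 in 3 libraries of a group but in all 4 of another, those at the edge of the rule, examples near another sequence, and PC-5p-219_12291, PC-5p-4045_211 and PC-5p-1744_747 from earlier results. PC-5p-6878_100, PC-3p-12113_44, PC-3p-6237_115, PC-3p-11644_46, PC-3p-2080_566 and PC-5p-5563_136 were singled out after their values were seen, as were the comparisons of shared runs, ends and reverse complements. The alternatives were other scalings, filters, DESeq2 1.42.0, a robust fit, fits of the compared groups only, terms for short inserts and library set, fits within a set, and each library left out.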

Additional observations from a re-analysis of the deposited data

Results flagged for a closer look

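In groups of 4 libraries, the highest or lowest value can stand apart from the other 3 by more than Dixon's critical value. This was seen in 8 of 165 combinations of candidate and group, and chance gives about 1 in 20, or 8.25. In all 8 the highest library stood apart. PC-5p-1744_747 stood apart in highCHO 38 with 1101.59 CPM (27.7 to 38.2 CPM in the others) and in fasted 7 with 27.8559 CPM (19.2 to 20.1). PC-3p-11644_46 did so in highCHO 38 with 92.798 CPM (0 to 12.4) and in fasted 10 with 11.3983 CPM (3.10 to 3.79). PC-3p-5129_152, the miR-33b-3p sequence with 1 additional base, did so in highCHO 49 with 44.2179 CPM, where 1 count is 4.42 CPM, and in fasted 10 with 23.9364 CPM. PC-3p-1821_696 did so in fasted 8 with 111.912 CPM (30.7 to 41.5), and PC-5p-6878_100 in fasted 8 with 10.7723 CPM (0 to 0.190).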

How the results depend on the processing

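For the candidates named for a comparison, 397 values were recomputed under alternatives. Of these, 371 kept direction and side of the threshold, 4 lost the call, 22 gained one and 0 turned direction. The 4 lost calls were those of PC-5p-219_12291 with the short-insert term, the set term against fasted and within set 2. The set term could not be fitted for PC-5p-4045_211, which is at 0 throughout set 2. Scaling to mappable reads moved the median log2 of all sequences in highCHO to −0.59 against fasted and −0.59 against noCHO, and scaling to totals moved it to −0.19 against fasted. With mappable reads PC-5p-219_12291 stood at 1.35 and 1.33, and 9 candidates passed against fasted (2 higher, 7 lower) and 10 against noCHO (2 higher, 8 lower), among 115 sequences in each. With no filter 5 (4 higher) and 4 (3 higher) candidates of 55 passed, among 54 and 52 of 1576 sequences. Fits of the compared groups only called 2 of 46 candidates against fasted, PC-5p-219_12291 and PC-5p-4045_211, among 21 of 321 sequences. Within set 2, 0 of 52 candidates and 0 of 363 sequences passed in edgeR (6 and 48 at an unadjusted p under 0.05; DESeq2 was not run there). Leaving out 1 library gave 1 to 2 candidates in both highCHO comparisons, and the second was PC-5p-1744_747, without highCHO 45, 49 or 50.

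Of all sequences, noCHO against fasted gave 4 with no filter, 2 with DESeq2 and 0 to 2 with 1 library left out (2 without noCHO 20). HighCHO against fasted gave 13 with total scaling, 115 with mappable reads, 54 with no filter, 33 with DESeq2, 3 with the short-insert term, 13 with the set term and 7 to 25 with 1 library left out (13, 7 and 8 without fasted 7, 8 and 10, 13 without highCHO 45). HighCHO against noCHO gave 3, 115, 52, 19, 1 and 18 in the same order, 4 with only the groups compared, and 2 to 18 with 1 library left out (4 without fasted 8 or 10, 5 and 2 without noCHO 21 and 31, 18 without highCHO 38). A rule of 10 counts in all 12 libraries would leave 7 candidates, and 20 counts in 4 would leave 31. As shares of mappable reads the candidates held 0.0773, 0.0811 and 0.104% in fasted, noCHO and highCHO libraries, and without PC-5p-219_12291 they held 0.124, 0.119 and 0.155% of table counts. No paired analysis was possible because the groups share no library numbers. Depth limits highCHO 49 most, where a count of 0 allows up to 13.3 CPM, above the mean level of most candidates.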
